A study of Mus musculus with 6 samples.

Results

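A pair of mouse lines whose GFP marks direction-selective neurons of the retina were compared, as 1 unit, with retinal neurons sorted in general. The comparison set the mean of the Hb9 and Drd4 group means (4 arrays, equal weight for each line) against 2 Thy1 arrays, so it used all 6 arrays of the series. Its members are the genes that both lines share: those past the threshold of the combined test and with a difference of the same sign in each line. Of 18193 genes tested, 247 were shared rises and 628 were shared falls. Hb9 RGCs and Drd4 RGCs are retinal cells that were positive for both GFP and Thy1, named after the line that carries the GFP. Thy1 RGCs are retinal cells positive for Thy1 that serve as the reference, and the labels do not say that direction-selective cells were removed from them. All 3 groups share the C57BL/6 strain, postnatal day 6, papain dissociation, flow cytometry, and 2 rounds of RNA amplification before hybridisation. Each group has 2 arrays from different litters.

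Retinal ganglion cells (RGCs) are the output neurons of the retina and come in many types. ON-OFF direction-selective ganglion cells (ooDSGCs) fire when an image moves in a preferred direction, which they owe to inhibition from starburst amacrine cells, and starburst cells also release acetylcholine onto them. The Hb9 and Drd4 lines are known to label ooDSGCs that prefer different directions, so the question asked here is which genes both lines have in common against RGCs in general. The lines are defined by a transgene and not by a recording, and neither Mnx1, the gene of Hb9, nor Drd4 passed in the combined comparison (adjusted p = 0.905 and 0.898 in limma).

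The arrays were alike in scale. Median intensity ran from 45.5 to 47.7, and 68.2% to 78.9% of genes per array lay above the brightest bacterial control probe set, which served as the background reference of that array (intensity 30.8 to 41.6). Replicate arrays correlated at 0.988 to 0.992 over genes, and arrays of different groups at 0.963 to 0.981. The 5′ probe set of 18S rRNA read 1071 and 1125 on the Hb9 arrays and 2457 to 3262 on the other 4. Its 3′ probe set went the other way, at 903 and 1003 on the Hb9 arrays and 480 to 865 on the other 4. The part of these gaps between Hb9 and the rest in the results was not tested. Among 19 measured pan-RGC genes the median log2 difference was 0.02, and Pou4f1 (-0.05 ± 0.14, SE) and Rbpms (0.02 ± 0.11) did not pass. A difference is always GFP lines minus Thy1 on the log2 intensity scale, an error is the standard error in limma, and adjusted p-values are from limma over all 18193 genes. Where the lower side lay at or below the background reference, the ratio is a lower bound and is written as "at least".

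Shared rises were fewer and smaller than shared falls. The 247 rises are 1.36% of all genes tested and the 628 falls are 3.45%. The median rise was 0.67 and the rises ran from 0.39 to 2.01, with 35 of 247 at least 2-fold and 1, Cartpt, at least 4-fold. The median fall was -1.01, and 327 falls were at least 2-fold, 82 at least 4-fold and 18 at least 8-fold. Over all genes the median difference was 0.04. Both Thy1 arrays lay at or below the background reference for 25 of the 247 rises, and all 4 GFP arrays for 107 of the 628 falls. Among these, every array of the series lay at or below it for 8 rises and 22 falls. The sizes of such differences are not measured. All 4 GFP arrays lay above both Thy1 arrays for 218 of the 247 rises, where 11.6% of all genes tested do so, and below both for 595 of the 628 falls, where 9.57% do so. The calls were made on the same arrays, so these counts describe the calls and add no support to them. Without Thy1 replicate 1, 73 rises and 339 falls were called, without Hb9 replicate 1 there were 111 rises, and without Hb9 replicate 2 there were 152. With both lines treated as 1 group of 4 arrays, which adds the differences between the lines to the error, 26 rises and 270 falls were called.

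**Figure D1:**
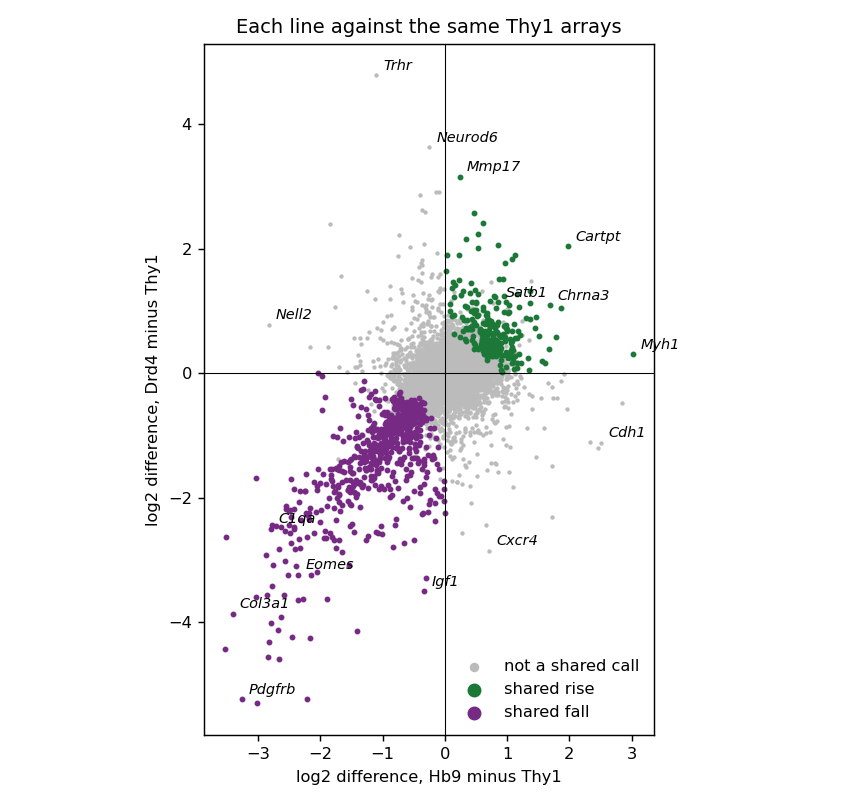
Log2 difference of Hb9 from Thy1 (horizontal) and of Drd4 from the same Thy1 arrays (vertical) for all 18193 genes, with the 247 shared rises in green and the 628 shared falls in purple. Both axes subtract the same 2 Thy1 arrays, so the slope of the cloud is not a result. Cartpt stands at the upper right and Pdgfrb at the lower left.

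Cartpt, Satb1 and Chrna3 rose and Eomes fell. These 4 markers were picked with earlier results of these arrays known, so their values describe the groups and are no independent check of the label. Cartpt, which encodes the precursor of CART peptides and is used as an ooDSGC marker, read 616 and 674 on the Hb9 arrays, 958 and 466 on the Drd4 arrays, and 169 and 157 on the Thy1 arrays. Every GFP array was above both Thy1 arrays, and the rise was the largest of all shared rises, at 2.01 ± 0.24 or 4.03-fold (adjusted p = 0.000924 in limma). It was 1.99 in Hb9 and 2.04 in Drd4, and the lines did not differ beyond their spread (-0.05, Hb9 minus Drd4). Satb1, a chromatin-binding transcription factor of ooDSGCs, read 1962 and 2406 in Hb9, 2718 and 2580 in Drd4, and 1225 and 1173 in Thy1. Its groups did not overlap, it rose by 1.0 ± 0.11 (adjusted p = 0.000689), and 4 of its 5 probe sets passed. Chrna3, the alpha3 subunit of nicotinic acetylcholine receptors, read 846 and 799, 580 and 511, and 217 and 301 in the same order. All GFP arrays were above both Thy1 arrays, by 1.39 ± 0.16 (adjusted p = 0.000705). Eomes, a transcription factor of other RGC types that include the melanopsin cells, read 71.0 and 79.3 in Hb9, 37.8 and 43.8 in Drd4, and 356 and 413 in Thy1. It was lower on all GFP arrays and fell by 2.79 on the log2 scale, or 6.94-fold (adjusted p = 1.85e-05), and by more in Drd4 than in Hb9 (difference 0.88, adjusted p = 0.0102). These 4 calls held in all 16 refits. In RNA pooled from many cells, fewer cells of a type and less RNA per cell cannot be told apart.

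The promoter of Cartpt is shown because the gene leads the shared rises and is a known target of cAMP signalling. In RefSeq on GRCm38.p6 it lies on the minus strand at chr13:99900634-99900933, from 250 bases before to 50 bases after the start. Capitals mark a cAMP response element (TGACGTCA, its own reverse complement), which spans bases 112 to 105 before the start, and a GC box (GGGCGG, searched on both strands).
Cartpt: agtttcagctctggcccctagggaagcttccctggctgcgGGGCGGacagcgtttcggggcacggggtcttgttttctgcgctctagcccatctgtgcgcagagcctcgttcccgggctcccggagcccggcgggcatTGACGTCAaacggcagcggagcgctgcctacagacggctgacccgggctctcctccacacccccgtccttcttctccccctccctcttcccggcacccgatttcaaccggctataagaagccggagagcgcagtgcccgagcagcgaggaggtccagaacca
The 8 letters of that element occurred in 2.92% of the 14452 promoters of tested genes, in 3 of 188 promoters of shared rises (Cartpt, Pax6 and Wdr82), and in 5 of 498 promoters of shared falls. The match describes these letters and was not tested as a binding site.

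**Figure D2:**
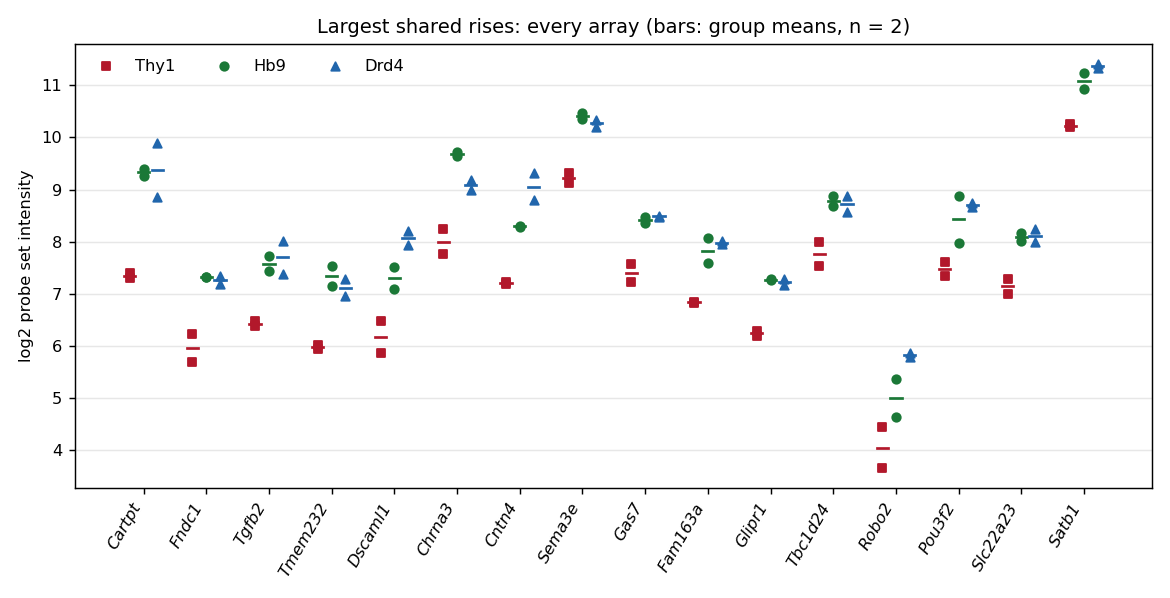
Log2 probe set intensity on every array (2 per group; short bars are group means) for the 15 largest shared rises by the rule for named genes, in order of the smaller of the 2 line differences, and for Satb1. In each gene all 4 GFP arrays lie above both Thy1 arrays, with Cartpt at 466 to 958 in intensity against 157 and 169.

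Of 12 measured genes known from ooDSGCs, 4 were shared rises and 0 were shared falls, with a median difference of 0.52 against 0.04 over all genes. Shared rises were 1.36% and shared falls 3.45% of all genes. Besides Cartpt and Satb1 these were Mmp17, a membrane-bound metalloproteinase, and Cdh6, a type II cadherin. Neither was carried evenly by the lines. Mmp17 read 122 and 101 in Hb9, 796 and 887 in Drd4, and 83.8 and 106 in Thy1, so the Hb9 arrays overlapped Thy1 and the combined 1.70 ± 0.15 came from Drd4 (Hb9 0.24, Drd4 3.16). Cdh6 read 976 and 1084 in Hb9, 452 and 398 in Drd4, and 325 and 319 in Thy1, with 1.67 in Hb9 and 0.40 in Drd4 (line difference 1.28, adjusted p = 0.000723). Some other genes of the list went opposite ways in the lines and left little in the combined value. Col25a1, a transmembrane collagen, was 1.72 in Hb9 and -2.30 in Drd4, and the calcium-binding gene Calb1 was 1.10 and -1.82. Trhr, a peptide receptor gene of the list, also had opposite signs. It was high in Drd4 alone, passed the combined threshold as higher and was not counted as shared. Gabra2 had 0.62 ± 0.21 and did not pass (adjusted p = 0.148). Without Drd4 replicate 2, 5 genes of the list rose, and with both lines as 1 group 2 rose. The list was drawn up with earlier results of these arrays known.

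Of 15 measured subunits, Chrna3, Chrnb4 and Chrna5 were shared rises and 0 were falls, with a list median of -0.01. The shares over all genes were 1.36% and 3.45%. Chrnb4, a beta subunit that pairs with alpha3, read 101 and 136 in Hb9, 78.2 and 77.9 in Drd4, and 52.0 and 49.5 in Thy1. Its groups did not overlap, and the rise was 0.91 ± 0.14 (adjusted p = 0.00507). Chrna5, an accessory alpha subunit, read 36.9 and 41.9 in Hb9, 21.5 and 20.6 in Drd4, and 20.9 and 20.8 in Thy1. That signal was near or below the background reference on every array, Drd4 and Thy1 were below it on both arrays, and the call was lost without Hb9 replicate 2 (then adjusted p = 0.103), Drd4 replicate 1 (0.0511), Thy1 replicate 1 (0.229) and Thy1 replicate 2 (0.147), and with both probe sets averaged (0.0827). Chrna5, Chrna3 and Chrnb4 follow each other on chromosome 9 in RefSeq. Promoters of the pair that rose beyond background are shown, Chrna3 at chr9:55026513-55026812 and Chrnb4 at chr9:55048495-55048794, both on the minus strand of GRCm38.p6. Capitals mark a GC box on the opposite strand, 13 to 8 bases before the start of Chrna3, and an E-box (CAGCTG, its own reverse complement) 14 to 9 bases before the start of Chrnb4.
Chrna3: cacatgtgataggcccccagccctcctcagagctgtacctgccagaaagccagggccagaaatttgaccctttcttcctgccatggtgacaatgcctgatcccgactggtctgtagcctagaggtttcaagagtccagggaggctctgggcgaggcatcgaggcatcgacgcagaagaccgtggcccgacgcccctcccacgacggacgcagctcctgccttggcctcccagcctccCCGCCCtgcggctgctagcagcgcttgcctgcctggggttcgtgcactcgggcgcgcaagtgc
Chrnb4: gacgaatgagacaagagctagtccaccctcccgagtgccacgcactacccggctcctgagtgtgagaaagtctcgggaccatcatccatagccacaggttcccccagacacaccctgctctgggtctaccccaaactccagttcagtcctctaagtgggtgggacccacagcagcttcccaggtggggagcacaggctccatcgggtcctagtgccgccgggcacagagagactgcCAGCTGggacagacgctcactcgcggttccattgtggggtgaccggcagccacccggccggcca
The E-box letters occurred in 18.8% of promoters of tested genes, 17.6% of those of shared rises and 22.5% of those of shared falls, and the GC box letters in 57.3%, 61.7% and 60.2%. Among the subunits that did not pass, Chrna6, a subunit common in RGCs, was -0.93 in Hb9 and 0.48 in Drd4, and Chrna4 was -0.63 and -0.18. No muscarinic receptor gene of 3 measured was called, with combined differences of -0.12 to 0.18.

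Among the other largest shared rises, Fndc1, which encodes a protein with fibronectin type III domains, read 160 and 160 in Hb9, 163 and 146 in Drd4, and 51.7 and 74.5 in Thy1. The lines were alike and apart from Thy1, at 1.34 ± 0.16 (adjusted p = 0.00105). Tgfb2, a secreted growth factor, read 173 and 211 in Hb9, 260 and 165 in Drd4, and 89.0 and 82.7 in Thy1. It rose by 1.21 ± 0.19 (adjusted p = 0.00429), and all 4 of its probe sets passed. Tmem232, a transmembrane protein gene, read 142 and 186, 155 and 123, and 64.6 and 61.3 in that order, a rise of 1.25 ± 0.16 (adjusted p = 0.00138). Gas7, known for a role in neurite growth, rose by 1.06 ± 0.14, with Hb9 at 329 and 354, Drd4 at 353 and 362, and Thy1 at 190 and 149. Fam163a rose by 1.07 ± 0.16, and its 4 GFP arrays at 191 to 267 lay above 114 and 113 in Thy1. Glipr1 (1.01 ± 0.13), Tbc1d24, which acts in vesicle traffic (0.99 ± 0.17), and the solute carrier gene Slc22a23 (0.97 ± 0.15) rose to about the same extent in both lines. Glipr1 and Tbc1d24 each passed on 1 probe set only, of 2 and 3, and were lost with all probe sets averaged (adjusted p = 0.389 and 0.225). Pou3f2, a POU transcription factor, rose by 1.09 ± 0.22, from 162 and 195 in Thy1 to 252 to 470 on the GFP arrays. Its call was lost without Thy1 replicate 1 (then adjusted p = 0.183) and replicate 2 (0.0536), that of Slc22a23 without Thy1 replicate 1 (0.0543) and that of Tbc1d24 without Thy1 replicate 2 (0.0639). Of 157 shared rises with several probe sets, 35 had at least 2 of them called.

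Recognition proteins of the immunoglobulin and leucine-rich families went both ways, with 9 of 71 measured genes rising and 7 falling (median 0.09). Over all genes 1.36% rose and 3.45% fell. Dscaml1, a relative of Dscam that acts in contacts between retinal neurons, read 136 and 183 in Hb9, 245 and 297 in Drd4, and 58.3 and 89.4 in Thy1. All GFP arrays were above Thy1, with a rise of 1.51 ± 0.20 (adjusted p = 0.00177). Cntn4, a membrane-anchored contactin, read 315 and 312, 634 and 444, and 150 and 146 in the same order, and rose by 1.46 ± 0.16 (adjusted p = 0.000626). The Cntn4 rise was larger in Drd4 (1.84 against 1.08, adjusted p = 0.0395 for the difference). Negr1, an adhesion protein of the IgLON family, rose by 0.93 ± 0.13 and about evenly (Hb9 0.83, Drd4 1.04). Among the falls Mcam, also known from vessels, fell by 1.33 and Jam2, a junctional adhesion molecule of other RGC types, by 1.30, with -0.35 in Hb9 and -2.25 in Drd4. Without Thy1 replicate 1 the list had 3 rises and 5 falls, without Thy1 replicate 2 it had 5 and 2, and without Hb9 replicate 1 it had 5 and 4.

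Cadherins and protocadherins had 7 of 39 measured genes rising and 6 falling (median 0.04), beside 1.36% and 3.45% of all genes. Besides Cdh6, Cdh7 rose, with 113 and 132 in Hb9, 625 and 442 in Drd4, and 99.7 and 78.3 in Thy1. Its combined 1.52 ± 0.18 (adjusted p = 0.000900) was again carried by 1 line, 0.47 in Hb9 and 2.57 in Drd4. Pcdh10, a delta protocadherin, was more even, with 566 and 703, 951 and 791, and 348 and 386, a rise of 1.01 ± 0.14 (adjusted p = 0.00276), and 3 of its 6 probe sets passed. Pcdh19, also a delta protocadherin, fell by 1.31 (Hb9 -0.37, Drd4 -2.26) and the giant cadherin Fat1 by 0.94 (Hb9 -1.34, Drd4 -0.54). Without Hb9 replicate 1, 3 cadherins rose, without Drd4 replicate 2, 4, without Thy1 replicate 1, 4 rose and 3 fell, and without Thy1 replicate 2, 4 fell; the Fat1 call was lost without Thy1 replicate 1 (then adjusted p = 0.0917).

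Of 68 measured axon guidance genes, 5 rose and 4 fell (median -0.04), beside 1.36% and 3.45% of all genes. Among ligands, Sema3e, a secreted semaphorin, read 1310 and 1417 in Hb9, 1301 and 1182 in Drd4, and 558 and 636 in Thy1. The GFP arrays of both lines were close together and above Thy1, by 1.13 ± 0.12 (adjusted p = 0.000523), though 1 of its 4 probe sets passed. Slit2, a secreted ligand of Robo receptors, read 566 and 588, 822 and 760, and 379 and 376, a rise of 0.84 ± 0.12 (adjusted p = 0.00276). Sema3a was carried by Drd4 (0.25 in Hb9, 1.25 in Drd4). Among receptors, Robo2, a receptor for Slit proteins, read 24.9 and 41.3, 55.2 and 58.0, and 12.6 and 21.5 (adjusted p = 0.00707 in limma). Thy1 lay below the background reference, and Drd4 was at least 1.61-fold above Thy1. Only 1 of the 2 Hb9 arrays was above background, and the Hb9 mean was not, so the size of the combined rise is not measured. Dcc, a netrin receptor, rose by 0.71 ± 0.15. The receptor gene Unc5d fell in both lines, with 58.8 and 67.8, 51.3 and 46.3, and 188 and 177, by 1.72 on the log2 scale (adjusted p = 0.000109). Sema6d, a membrane semaphorin, fell by 1.30 and Plxnc1, a semaphorin receptor, by 1.17. With Thy1 replicate 1 left out 2 guidance genes rose, and without Hb9 replicate 1 or Thy1 replicate 2, 3 rose. The calls of Robo2, Sema3a and Dcc were lost without Thy1 replicate 1 (then adjusted p = 0.0892, 0.138 and 0.0928), and those of Sema3a and Dcc also without Hb9 replicate 1 (0.0577 and 0.0714) and Thy1 replicate 2 (0.112 and 0.103), that of Sema3a also without Hb9 replicate 2 (0.0733). With all probe sets averaged Sema3a, Dcc, Sema6d and Plxnc1 were lost (adjusted p = 0.158, 0.216, 0.0621 and 0.144).

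Against 1.36% of all genes rising and 3.45% falling, 1 of 17 GABA and glycine receptor genes rose and 0 fell (median 0.02), namely Gabra5, the alpha5 subunit of GABA-A receptors. It read 213 and 205 in Hb9, 143 and 176 in Drd4, and 88.9 and 81.7 in Thy1, above Thy1 on every GFP array, by 1.09 ± 0.14 (adjusted p = 0.00154). Without Drd4 replicate 2, 3 genes of that list rose. Of 22 glutamate receptor genes (median 0.03) the kainate receptor subunit gene Grik1 rose, from 78.0 and 98.1 in Thy1 to 208 and 275 in Hb9 and 152 and 138 in Drd4 (1.09 ± 0.16, adjusted p = 0.00351, and 0.0518 without Thy1 replicate 1). The NMDA receptor subunit gene Grin3a fell (-0.09 in Hb9, -1.97 in Drd4), a call lost without Hb9 replicate 1 (then adjusted p = 0.114), Thy1 replicate 1 (0.215) or Thy1 replicate 2 (0.174), and with robust moderation (0.0756).

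Ion channel genes were called in both directions. Among 42 potassium channel genes 2 rose and 3 fell (median 0.10), beside 1.36% and 3.45% of all genes. Kcnt2, a sodium-activated potassium channel, was at background in Thy1 and at least 1.33-fold higher, and Kcna2 rose by 0.56 ± 0.13. Kcnip4, a subunit that modulates A-type channels, fell by 1.35 and Kcnd2, a pore subunit of such channels, by 1.26, with Hb9 at 684 and 911, Drd4 at 159 and 181, and Thy1 at 872 and 887. The Kcnd2 fall therefore lay in Drd4. Without Thy1 replicate 1, 0 potassium channel genes rose and 1 fell (adjusted p = 0.134 for Kcnt2, 0.348 for Kcna2 and 0.0529 for Kcnip4), and with all probe sets averaged Kcna2 was not called (0.298), and it was lost without any 1 of the other arrays but Thy1 replicate 2, at adjusted p-values of 0.0679 to 0.131. Without Hb9 replicate 1 the Kcnd2 difference in Hb9 turned and it was no longer shared. Of 28 sodium, calcium and HCN channel genes 2 rose and 2 fell (median 0.05), among the falls Cacna2d3, an accessory calcium channel subunit. It was -0.61 in Hb9, and in Drd4, where both arrays were below background, it was at least 2.32-fold lower. Without either Hb9 array, or without Thy1 replicate 1, 0 of that list rose and 1 fell. Of 38 synaptic vesicle and release genes (median 0.10), Cplx1, a complexin that gates release, rose by 0.54 ± 0.09 with 0.07 in Hb9 and 1.0 in Drd4, and was lost without Thy1 replicate 2 (then adjusted p = 0.0507). Syn3, a synapsin, rose by 0.48 ± 0.11 and was lost without each array in turn (adjusted p = 0.0681 to 0.253). With all probe sets averaged neither Cplx1 nor Syn3 was called (adjusted p = 0.0627 and 0.0813 in limma). Under quantile normalisation Syn3 did not pass (0.0636). Cplx1 passed the combined test there (0.0154) but no longer had the same sign in each line, so it was not shared. Axonal motor genes (18 measured, median 0.13) had 0 calls in either direction.

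Of 36 neuropeptide and growth factor genes 2 rose and 3 fell (median 0.04), beside 1.36% and 3.45% of all genes. With Cartpt, Chga, a granule protein gene, rose by 0.54 ± 0.13, and its call was lost without any 1 of the arrays other than Drd4 replicate 1 (then adjusted p = 0.0658 to 0.23). Crh, the precursor of corticotropin-releasing hormone, was at background on all GFP arrays (7.81 to 16) against 66.7 and 48.5 in Thy1, at least 1.55-fold lower (adjusted p = 0.000795). Igf1 and Tac1, the precursor of substance P, fell mainly in Drd4, and Tac1 was lost without Thy1 replicate 1 (then adjusted p = 0.13). Of 36 peptide and amine receptor genes 3 rose and 1 fell (median 0.08). Adcyap1r1, the receptor for PACAP, rose by 0.84 ± 0.13, from 97.1 and 112 in Thy1 to 139 and 137 in Hb9 and 251 and 258 in Drd4, and was lost without Thy1 replicate 1 (then adjusted p = 0.0603). Cnr1, a cannabinoid receptor, rose by 0.70 ± 0.14 and Sstr4, a somatostatin receptor, by 0.74 ± 0.15, nearly all in Drd4 (0.12 in Hb9, 1.36 in Drd4). Without Hb9 replicate 1, Thy1 replicate 1 or Thy1 replicate 2, 1 receptor gene of the list rose and 0 fell. Cnr1 lost its call without Hb9 replicate 1 (adjusted p = 0.05) and had 0.111 and 0.0622 without Thy1 replicates 1 and 2, and Sstr4 had 0.0532 without Hb9 replicate 1 and 0.12 without Thy1 replicate 2. Alk, a receptor tyrosine kinase, was the 1 rise among 26 neurotrophin and growth factor signalling genes (median -0.08; 2 fell). It read 247 and 223 in Hb9, 557 and 526 in Drd4, and 135 and 126 in Thy1, so that both lines stood above Thy1 and Drd4 above Hb9 (1.45 ± 0.13, adjusted p = 0.000241; line difference -1.21, adjusted p = 0.00120). Of 48 calcium binding and G-protein signalling genes 2 rose and 2 fell (median 0.16). Ryr2, a calcium release channel, rose by 1.02 ± 0.15 (0.81 in Hb9 and 1.22 in Drd4), and Plcb1, a phospholipase, by 0.72 ± 0.14 (adjusted p = 0.0135, and 0.116 without Thy1 replicate 1). With all its probe sets averaged Plcb1 was 0.11 and not called (adjusted p = 0.667), and the calls of Adcyap1r1, Sstr4 and Tac1 were also lost that way (0.0798, 0.0818 and 0.0732).

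Of 88 measured transcription factors 18 fell and 7 rose (median -0.07). Falls outnumber rises among all genes too, at 3.45% against 1.36%. Besides Satb1, the rises were Tfap2d, Barhl2, Bcl11b, Pax6, Meis1 and Ebf4. Barhl2, a homeodomain factor of RGCs and amacrine cells, rose in both lines, with 120 and 119 in Hb9, 95.7 and 111 in Drd4, and 58.7 and 62.3 in Thy1 (0.88 ± 0.13, adjusted p = 0.00316). Bcl11b, a zinc finger factor, rose by 0.79 with 0.17 in Hb9 and 1.41 in Drd4. Pax6, an eye field factor kept in RGCs and amacrine cells, rose by 0.75 ± 0.15, with 1746 and 1473, 1548 and 1862, and 832 and 1153. It was also the 1 rise among 13 amacrine cell markers (median -0.07), of which Meis2 fell. The summed intensity of those 13 was 5101 to 6451 in Hb9, 5996 to 6946 in Drd4 and 4397 to 5920 in Thy1. Gad1 (0.02) and the glycine transporter gene Slc6a9 (0.08), which define inhibitory amacrine cells, did not pass, and the part of amacrine RNA in the Pax6 rise was not tested. Besides Eomes, the falls included Zic1, Runx1 and Maf. Zic1 fell by 2.78, from 1417 and 1116 in Thy1 to 386 and 579 in Hb9 and 53.5 and 94.4 in Drd4. Runx1, which microglia also express, fell by 2.27 (63.9 and 63.4, 66.7 and 21.8, against 232 and 245), and Maf, likewise known from microglia, by 2.14. With Thy1 replicate 1 left out 2 factors rose and 8 fell, and without Thy1 replicate 2, 4 rose and 11 fell. Bcl11b, Pax6 and Maf were lost without Thy1 replicate 1 (then adjusted p = 0.102, 0.195 and 0.118), Pax6 without Hb9 replicate 1 (0.0642), and Bcl11b was not shared without Hb9 replicate 2, where the Hb9 difference turned. Tfap2d and Meis1 were lost without Thy1 replicate 1 (then adjusted p = 0.157 and 0.171) and Thy1 replicate 2 (0.0646 and 0.0825), and Meis1 also without Hb9 replicate 2 (0.0761). Ebf4 was lost without Hb9 replicate 1 (0.109), Thy1 replicate 1 (0.0999) and Thy1 replicate 2 (0.195). Averaging all probe sets ended the calls of Pax6 (adjusted p = 0.0821) and Meis1 (0.158), and robust moderation those of Runx1 (0.052) and Maf (0.112).

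Markers of other RGC types were lower, with 9 of 24 measured genes falling and 1, Spon1, rising (median -0.40), beside 3.45% and 1.36% of all genes. With Eomes and Zic1, Tbx20, a T-box factor of melanopsin cells, was at or below background on all GFP arrays (26.7 to 33.3) against 137 and 87.1 in Thy1, at least 2.99-fold lower (adjusted p = 0.000322). Opn4, the gene of melanopsin, was lower on all 4 GFP arrays at -0.48 ± 0.14 and did not pass (adjusted p = 0.0892). Tbr1, a T-box factor of other RGC types, fell by 1.08, from 76.7 and 72.4 to 40.6 and 51.0 in Hb9 and 31.4 and 23.6 in Drd4. Foxp2, a forkhead factor, fell by 1.98 ± 0.38 with wide replicates (280 and 511, 243 and 82.4, against 775 and 1069). Its call was lost without Thy1 replicate 1 (then adjusted p = 0.0598) and replicate 2 (0.102), and without either Thy1 array 7 genes of the list fell. The Spon1 call was lost without either Hb9 array or either Thy1 array (adjusted p = 0.0539 to 0.141). Foxp2 was also lost with robust moderation (adjusted p = 0.13) and with its probe sets averaged (0.0653).

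Among general ganglion cell genes, 2 of 19 rose and 1 fell, beside 1.36% and 3.45% of all genes. Nefm, a neurofilament subunit, rose from 1988 and 1893 in Thy1 to 3125 and 2658 in Hb9 and 2966 and 3234 in Drd4 (0.62 ± 0.10, adjusted p = 0.00599). Thy1, the surface protein used for all 3 sorts, read 3225 and 2900, 3407 and 3525, and 2412 and 2422, a rise of 0.43 ± 0.09 (adjusted p = 0.0219). The Thy1 call was lost without Hb9 replicate 1 (then adjusted p = 0.109), Thy1 replicate 1 (0.117) and Thy1 replicate 2 (0.0796), with the replicate block (0.0501) and without the intensity trend (0.0653). Ebf1 fell by 1.07 ± 0.26, and was lost without Hb9 replicate 1 (0.100), Thy1 replicate 1 (0.33) and Thy1 replicate 2 (0.0898). Among housekeeping groups, sterol synthesis genes had 2 of 17 rising, Lss and Cyp51, with a median of 0.41 and every measured member at or above 0.01. Lss was 0.86 ± 0.20 and Cyp51 0.72 ± 0.15; without Hb9 replicate 1, Hb9 replicate 2 or Thy1 replicate 1, 0 sterol genes passed, without Drd4 replicate 1, 4 did, and without Thy1 replicate 2, 3 did. Respiratory chain and ATP synthase genes had 1 rise of 36, Cox7c (median 0.11), lost without Hb9 replicate 1, Thy1 replicate 1 or Thy1 replicate 2 (then adjusted p = 0.095, 0.21 and 0.12). Glycolysis genes had 1 rise, Pfkp, and 1 fall, Hk2, of 17, and proteasome genes 0 calls of 27. With all its probe sets averaged Pfkp was 0.02 and not called (adjusted p = 0.972), and under quantile normalisation it was lost too (0.0801). Averaging also ended the calls of Lss (0.324), Cox7c (0.153) and Hk2 (0.0553), and robust moderation that of Ebf1 (0.0916). Pfkp was lost without Hb9 replicate 1 (then adjusted p = 0.0883) and Thy1 replicate 1 (0.271), and Hk2 without Drd4 replicate 2 (0.055), Thy1 replicate 1 (0.253) and Thy1 replicate 2 (0.125).

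How evenly a rise was shared was read from the difference between the lines, which passed for 1113 genes, or 6.12% of all. Among the 247 rises 62 differed between the lines, 28 with the larger rise in Hb9 and 34 in Drd4. In 146 of the 247 the smaller line difference was at least 0.5 times the larger one. Both lines passed on their own for 52 rises (0.286% of all genes pass as higher in each line) and for 370 falls (2.03% pass as lower in each). In 122 rises Hb9 passed and Drd4 did not, in 64 Drd4 passed and Hb9 did not, and in 9 neither did. A rise of at least 2-fold in each line was found for 10 genes, all of which also passed in each line. The 2 line comparisons use the same Thy1 arrays, so no agreement between them is counted as evidence.

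The least even shared rises were Mmp17, Myh1, Cdh7, Galnt18, Mapk4 and Chsy3. Myh1, a myosin heavy chain gene, read 166 and 106 in Hb9, 20.5 and 19.9 in Drd4, and 17.5 and 15.2 in Thy1. Drd4 and Thy1 were below background and Hb9 alone was above it, at least 3.77-fold over Thy1. The sign in Drd4, by which Myh1 counts as shared, and the size of the combined rise are therefore not measured. Mapk4, an atypical MAP kinase gene, read 99.7 and 79.3, 342 and 286, and 80.6 and 61.5, so Drd4 stood apart and Hb9 overlapped Thy1. Galnt18, a glycosyltransferase gene, was 0.03 in Hb9 and 1.90 in Drd4, and Chsy3, a chondroitin synthase gene, 0.62 and 2.42. Galnt18 was lost without Thy1 replicate 1 (then adjusted p = 0.0852) and replicate 2 (0.0774), as was Chsy3 (0.0895 and 0.112, and 0.0875 with robust moderation), and without Hb9 replicate 1 Galnt18 was no longer shared. Among the falls the least even were Igf1, Sorcs1, Zic1 and Jag1. Igf1, a growth factor of alpha-type RGCs, read 1570 and 1216 in Hb9, 161 and 146 in Drd4, and 2084 and 1447 in Thy1, so the Hb9 arrays overlapped Thy1 and the fall lay in Drd4. Sorcs1, a sorting receptor gene, was -0.30 in Hb9 and, below background on both Drd4 arrays, at least 4.86-fold lower in Drd4, and without Hb9 replicate 1 it was no longer shared.

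A further 51 genes passed the combined threshold with opposite signs in the lines, 35 higher and 16 lower, and were not counted as shared. Trhr, the receptor for thyrotropin-releasing hormone, read 12.2 and 19.1 in Hb9, 1040 and 783 in Drd4, and 28.7 and 37.3 in Thy1. Both Drd4 arrays and 1 Thy1 array were above background, and Drd4 was at least 22.6-fold above Hb9. Neurod6, a bHLH factor, was likewise high in Drd4 alone (133 and 76.4, against 6.37 to 8.46 elsewhere, all below background), at least 2.53-fold above Hb9. Cdh1, the gene of E-cadherin, read 260 and 185 in Hb9, 15.6 and 20.1 in Drd4, and 41.0 and 35.9 in Thy1, so Hb9 was at least 6.52-fold above Drd4, which was below background. Nell2, a secreted ligand, was low in Hb9 (79.8 and 69.3) and high in Drd4 (756 and 1095) with Thy1 between them (419 and 667), and Cxcr4, a chemokine receptor, was high in Hb9 (224 and 197), low in Drd4 (21.0 and 15) and between in Thy1 (166 and 99.4). Drd4 was below background for Cxcr4, and Hb9 at least 6.25-fold above it.

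**Figure D3:**
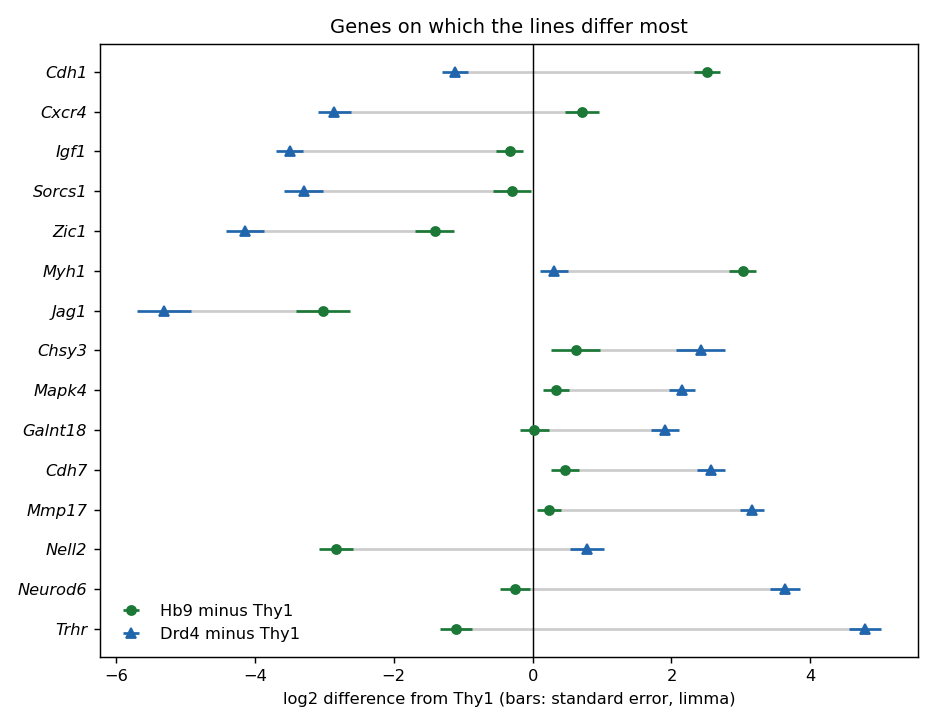
Log2 difference from Thy1 in Hb9 (circles) and Drd4 (triangles), with standard errors from limma (n = 2 arrays per group), for the 10 least even shared genes and the 5 genes past the combined threshold with opposite signs. Mmp17 lies near 0 in Hb9 and at 3.16 in Drd4, while Trhr and Cdh1 lie on opposite sides of 0. Points are measured differences, and those of Myh1, Sorcs1, Trhr, Neurod6, Cdh1 and Cxcr4 involve a group below background, where the size is not measured. For Jag1, Drd4 replicate 2 alone was below background.

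The largest shared falls included genes known from vessel walls and connective tissue. Pdgfrb, the receptor that defines pericytes, read 113 and 73.4 in Hb9, 61.1 and 8.79 in Drd4, and 825 and 928 in Thy1. All GFP arrays were far below Thy1, by 4.25 on the log2 scale (adjusted p = 0.00198, and 0.116 with robust moderation), and Drd4 replicate 2 was the lowest. Jag1, a Notch ligand, read 112 and 104, 38.8 and 12.7, and 822 and 938, a fall of 4.16 (adjusted p = 0.000147). Ahnak, a large scaffold protein, fell by 3.98 (84.3 and 59.1, 62.4 and 23.2, against 795 and 843), with 1 of 4 probe sets passing. Col3a1, a fibrillar collagen, fell by 3.64, from 336 and 487 to 42.6 and 33.9 in Hb9 and 41.5 and 18.6 in Drd4 (adjusted p = 0.000124). Aspn, a matrix proteoglycan, was below background on all GFP arrays (9 to 19.5, against 149 and 133) and at least 3.84-fold lower. Epas1, a hypoxia factor common in endothelium, fell by 3.57, Ets1 by 3.41 and the interferon-induced gene Ifitm3 by 3.10. Zfp36l1, an RNA-binding protein, fell by 2.93, and Abca1, a cholesterol exporter, by 2.91. Fli1, an Ets factor of blood and endothelial cells, was -3.31 ± 0.76 with replicates far apart (127 and 11.3 in Drd4, 742 and 282 in Thy1), and was lost without Hb9 replicate 1 (then adjusted p = 0.0727), Thy1 replicate 1 (0.328) and Thy1 replicate 2 (0.059). Abca1 was lost without Thy1 replicate 1 (then adjusted p = 0.0975). With robust moderation Abca1 and Fli1 were not called (adjusted p = 0.145 and 0.337). Of the 12 largest falls, 10 had only Drd4 replicate 1 above background in Drd4, and Zfp36l1 had both. Of the 628 falls, 110 differed between the lines, 92 of them with the larger fall in Drd4.

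**Figure D4:**
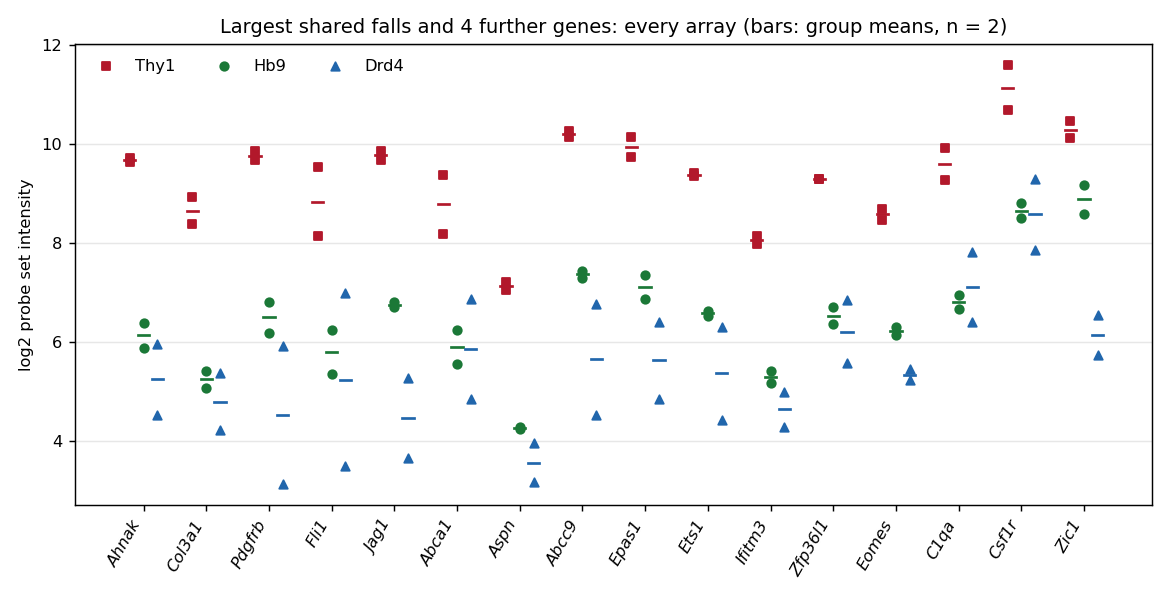
Log2 probe set intensity on every array (2 per group; short bars are group means) for the 12 largest shared falls by the rule for named genes and for Eomes, C1qa, Csf1r and Zic1. In each gene both Thy1 arrays lie above all 4 GFP arrays, and for Pdgfrb, Fli1 and Jag1 the 2 Drd4 arrays lie far apart.

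Markers of other cells and of cell states made up a part of the falls. The marker lists other than the pan-RGC list had 204 measured genes. They cover non-neuronal cells, other retinal neurons, dividing cells and immediate-early genes. Of the 628 falls 61 were on these lists, and of the 247 rises 1, Pax6. Over all genes 3.45% fell and 1.36% rose. Of 17 microglial genes 14 fell, with a median of -2.15. C1qa, a complement gene of microglia, read 103 and 123 in Hb9, 226 and 84.5 in Drd4, and 978 and 621 in Thy1, a fall of 2.64 (adjusted p = 0.00138), and Csf1r, a receptor that microglia need, fell by 2.52. The summed microglial intensity was 8652 to 15116 in Thy1, 2105 to 2795 in Hb9 and 1417 to 4046 in Drd4, so the Thy1 arrays also differed from each other. Without Thy1 replicate 1, 9 microglial genes fell, with robust moderation 9 fell, and Csf1r was lost with robust moderation (adjusted p = 0.0595). The part of microglial RNA in the other falls was not tested.

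Some pericyte genes fell, and the endothelial markers Pecam1, Cdh5 and Cldn5 were at background. Of 18 genes of endothelial cells and pericytes 7 fell, beside 3.45% of all genes. Kcnj8, a channel of pericytes, fell by 2.20 (33.2 and 38.8, 32.8 and 23.5, against 142 and 148), and Abcc9, its partner subunit, by 3.70. Cspg4 fell by 0.50 and was lost with median centring, quantile normalisation and the replicate block (adjusted p = 0.0569, 0.0578 and 0.0564 in limma). Its call was also lost without each array in turn, where the difference was -0.41 to -0.59. Tagln, Anpep, Des, Kdr, Tek, Tie1, Esam and Vwf were not called. Rgs5, a pericyte regulator, was -3.73 ± 0.88 and lost without either Hb9 array (adjusted p = 0.0604 and 0.0692) or either Thy1 array (0.212 and 0.148). Among endothelial genes Flt1, a VEGF receptor, fell by 1.02, while Pecam1 (0.09), Cdh5 (-0.13) and Cldn5 (0.11) had group means below background and did not pass. The summed intensity of the list was 8484 to 9630 in Thy1, 2046 to 2444 in Hb9 and 750 to 1602 in Drd4. With robust moderation 4 of the list fell, and Abcc9 and Rgs5 were not called (adjusted p = 0.0688 and 0.363). Matrix and mesenchymal genes fell in 16 of 24 (median -1.43). Col4a1, a basement membrane collagen, was the tightest, at 208 and 178, 209 and 184, and 1106 and 1173 (-2.55 ± 0.14, adjusted p = 2.58e-05), and Nid1 and Postn fell by 3.62 and 2.96.

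Genes of dividing cells fell in 8 of 21 (median -0.52) and immediate-early and dissociation genes in 10 of 28 (median -0.49). The share of falls over all genes was 3.45%. Top2a, a topoisomerase of dividing cells, read 35.9 and 39.5, 39.2 and 37.2, and 93.3 and 142, a fall of 1.60. Mki67 was below background on the GFP arrays (24.9 to 39.7) and at least 2.74-fold lower than in Thy1, where the arrays stood apart at 63.8 and 158. Egr1, induced by activity and by dissociation, fell by 1.71 (227 and 267, 242 and 154, against 890 and 569), and Fos by 1.41. Without Thy1 replicate 2, 3 dividing cell genes fell, and without Thy1 replicate 1, 3 immediate-early genes fell. Of 19 genes of Muller glia and progenitors 4 fell: Apoe by 2.79, Vim by 1.87, Car2 by 0.75, and Id3, at background on the GFP arrays, at least 1.46-fold. Car2 was lost without Hb9 replicate 1 (then adjusted p = 0.0781), Thy1 replicate 1 (0.0633) and Thy1 replicate 2 (0.152). Of 7 horizontal cell genes Septin4 fell by 1.37 and Onecut1 by 0.77, the latter lost without Thy1 replicate 1 (0.0911) and Thy1 replicate 2 (0.0696). No member of the astrocyte (6 measured), oligodendrocyte and myelin (7), starburst amacrine (5), bipolar (11), rod (14), cone (10), erythrocyte (3) or T cell (5) lists was called as shared.

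**Figure D5:**
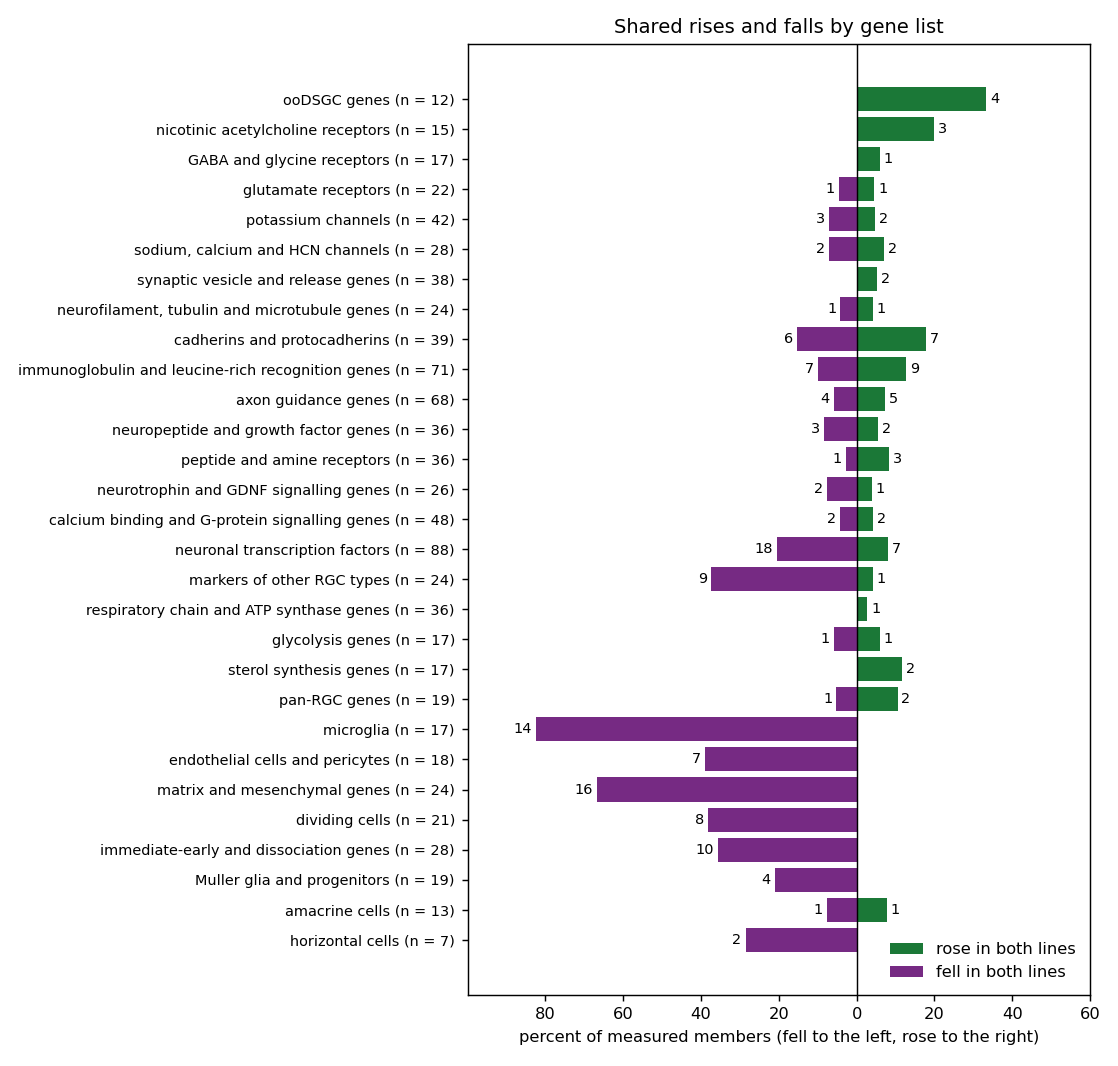
Percent of the measured members of each gene list that were shared rises (right, green) or shared falls (left, purple), with the number of genes at each bar and the number measured in brackets; lists with 0 calls are not drawn. ooDSGC genes have 4 of 12 rising, and microglial genes 14 of 17 and matrix genes 16 of 24 falling, against 1.36% and 3.45% of all genes.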

How the data were processed

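Gene expression was measured on 6 Affymetrix Mouse Genome 430 2.0 arrays, 2 per group. The deposited values are linear probe set intensities. Their software and normalisation are not stated by the labels or file headers. From 45101 probe sets, 64 controls, 932 with several genes and 9160 unnamed were left out, and 34945 with 1 gene gave 18193 genes, each by its brightest probe set (mean log2 over 6 arrays). The deposited intensities were taken to log2 with no offset, and limma 3.58.1 in R 4.3.3 fitted 3 group means with an intensity trend (residual degrees of freedom 3). The contrast (Hb9 + Drd4)/2 - Thy1 was tested two-sided with Benjamini-Hochberg adjustment over all 18193 genes at 0.05, and a shared gene has the same sign in each line. An exact permutation of 4 against 2 arrays cannot give a p below 0.0667, so none is reported. The number of arrays limits the precision (median SE 0.13). The fit was also run on simulated arrays with independent normal errors and no litter or array effects. That run checks the code and cannot show how the calls hold on the real arrays.

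Named genes are the 15 rises and 12 falls with the largest smaller line difference and no overlap, the marker genes, up to 4 called members per list, and the 5 opposite and 10 least even genes. Other list members named in the text were chosen after their values were seen. The members and lists were chosen with earlier results of these data known. Promoters come from RefSeq on GRCm38.p6 and matched 14452 genes. Equal replicate numbers did not pair the samples (correlation of deviations -0.28, -0.19 and 0.37). Alternatives covered normalisation, probe set choice, dim genes, offset, moderation, array weights, grouping, call rule, the replicate block and each array left out.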

Additional observations from a re-analysis of the deposited data

Results flagged for a closer look

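The difference between the lines (Hb9 minus Drd4, log2, in limma) passed for each of the 15 genes picked for the largest gap between the lines. Among shared rises it was -2.92 for Mmp17, 2.72 for Myh1 (Drd4 below background, Hb9 at least 3.95-fold higher), -2.11 for Cdh7, -1.88 for Galnt18, -1.81 for Mapk4 and -1.80 for Chsy3. Among shared falls it was 3.17 for Igf1, 3.00 for Sorcs1 (Drd4 below background, Hb9 at least 3.96-fold higher), 2.73 for Zic1 and 2.28 for Jag1, all lower in Drd4. For Jag1, Drd4 replicate 2 was below background. Among genes with opposite signs it was -5.89 for Trhr, -3.89 for Neurod6, 3.63 for Cdh1, -3.61 for Nell2 and 3.56 for Cxcr4. One line was below background on both arrays for Trhr, Neurod6, Cdh1 and Cxcr4, so these sizes are not measured and the other line was at least 22.6-fold, 2.53-fold, 6.52-fold and 6.25-fold higher. Passing was a condition for picking the shared rises and falls among them, and the gap chose all of them. The sizes and the passing are therefore a description only.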

How the results depend on the processing

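With both lines as 1 group, 26 rises and 270 falls were called. Past the threshold in each line there were 52 and 370, and at least 2-fold 35 and 327. Leaving out 1 array gave 73 to 330 rises and 339 to 731 falls, both lowest without Thy1 replicate 1 and highest without Drd4 replicate 1. Without Thy1 replicate 1, 55 of the 247 rises were still called. For the difference between the lines, the count of genes was 411 to 1244 with 1 array left out and 2001 with every probe set tested. The replicate block gave 217 rises, 625 falls and 1030 genes with a difference between the lines. The remaining settings stayed within 1.5 times of 247 rises and 628 falls, from 197 (mean of probe sets) to 348 (median centring) rises and from 586 to 822 falls. No named gene turned direction in the combined value. Of 67 named rises 25 were kept in all refits, and of 119 named falls 55. Where a group lay below background on every array, the size of a difference is not measured.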
